A study of Homo sapiens with 5 samples.

Results

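UBE2L3, HECTD2, SH3RF1, FBXO32 and ZBTB16 are 5 genes of the ubiquitin ligase pathway that have an entry in the study's table of G4-associated gene regions. A G-quadruplex (G4) is a 4-stranded fold of guanine-rich DNA, in which guanines stack in planar tetrads. The table holds 1303 windows of 4000 bp under 1289 gene names, and each of the 5 genes has 1 window. Per the paper, recurrent C4-2 peaks were set against G4 profiles of HepG2 and K562 cells, and those called specific to prostate cancer were kept. The table is therefore not a list of all genes with a BG4 peak: of 8036 peaks in replicate 1, 641 lay in its windows. Although the paper calls the peaks recurrent, 665 of the 1303 windows held a peak of only 1 of the 4 replicates. The windows are listed because they hold BG4 peaks, and the 5 genes were picked by function with their peaks already known. The presence of a peak in a window is therefore not a finding, and all values below are a description without tests. G4s were mapped in C4-2, a human cell line of androgen-independent prostate cancer, and no treatment or genetic change is given for any sample. BG4, an antibody that recognises folded G4s, was used to precipitate cross-linked, sheared chromatin, and the precipitated DNA was sequenced (ChIP-seq). There were 4 biological replicates of 1 condition, each with its own peak list of 8036, 6192, 6805 and 4427 peaks for replicates 1 to 4. An input sample of C4-2 chromatin was not analysed here, and the labels name the source of all samples as prostate cancer tissue although they give the cell line too.

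Ubiquitin is a small protein that cells attach to other proteins, often to mark them for the proteasome. An E1 enzyme activates it, an E2 enzyme carries it, and an E3 ligase chooses the protein that receives it. HECT ligases take the ubiquitin onto themselves before they pass it on, RING ligases bring the loaded E2 to the substrate, and cullin ligases are assemblies in which an exchangeable adaptor holds the substrate. UBE2L3 (UbcH7) is an E2 that works with HECT and RING-between-RING ligases. HECTD2 carries a HECT domain, and SH3RF1 (POSH) is a RING ligase with SH3 domains that also acts as a scaffold in JNK signalling. FBXO32 (atrogin-1) is an F-box protein of SCF (cullin 1) ligases known from muscle atrophy. ZBTB16 (PLZF) is a zinc finger transcription factor whose BTB domain can bind cullin 3. BG4 peaks tell where the antibody bound DNA, not whether a gene was expressed, so the data hold no reading of ubiquitin ligase activity.

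The sequence next to the start sites of 3 of these genes is shown because G4s need runs of guanines, and the genes differ in how many such runs they have. The sequences are the 250 bases before the start in RefSeq (GRCh38.p14), read 5′ to 3′ on the gene's own strand. Capitals mark runs of at least 3 G, or of at least 3 C, which are G runs of the other strand. HECTD2 is at chr10:91410094-91410343 (plus strand), SH3RF1 at chr4:169270957-169271206 (minus strand) and UBE2L3 at chr22:21549197-21549446 (plus strand). ZBTB16 and FBXO32 are given by name only.
HECTD2: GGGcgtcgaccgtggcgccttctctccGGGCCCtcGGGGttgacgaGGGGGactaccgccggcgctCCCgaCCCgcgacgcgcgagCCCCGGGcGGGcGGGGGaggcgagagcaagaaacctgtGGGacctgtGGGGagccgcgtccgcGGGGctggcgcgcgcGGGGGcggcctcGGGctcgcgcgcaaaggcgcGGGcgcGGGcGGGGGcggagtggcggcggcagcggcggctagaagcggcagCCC
SH3RF1: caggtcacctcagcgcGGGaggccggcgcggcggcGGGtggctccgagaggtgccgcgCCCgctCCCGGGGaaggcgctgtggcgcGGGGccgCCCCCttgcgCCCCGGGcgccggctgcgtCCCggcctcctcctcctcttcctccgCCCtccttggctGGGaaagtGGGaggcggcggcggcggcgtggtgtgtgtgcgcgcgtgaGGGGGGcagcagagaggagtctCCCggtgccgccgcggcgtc
UBE2L3: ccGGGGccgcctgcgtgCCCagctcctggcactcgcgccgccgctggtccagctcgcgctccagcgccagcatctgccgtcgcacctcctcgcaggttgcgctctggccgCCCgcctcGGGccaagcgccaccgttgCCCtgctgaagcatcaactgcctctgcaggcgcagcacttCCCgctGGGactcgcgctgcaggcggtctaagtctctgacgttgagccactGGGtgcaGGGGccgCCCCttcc
The HECTD2 sequence had 15 runs of G and 5 of C, with 80.8% G and C. The SH3RF1 sequence had 8 runs of G and 7 of C, with 79.2% G and C, and the UBE2L3 sequence had 5 of each, with 72%. The G runs of HECTD2 thus lay mainly on the gene's own strand, whereas both strands of SH3RF1 and UBE2L3 had a similar number. HECTD2 has another RefSeq start at position 91409235, whose upstream 250 bases had 34.4% G and C, with 1 run of G and 2 of C. The peaks are placed on GRCh37, so these sequences were not laid under them. Whether any of these bases lie under a peak was not established. For UBE2L3, every summit lay 810 to 1450 bp downstream of the window centre, and no peak covered that centre.

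The 5 windows held 18 peaks, which merged into 7 separate regions when overlapping peaks of the replicates were joined. A peak lay in 4, 4, 5 and 2 of the 5 windows in replicates 1, 2, 3 and 4. Over all windows of the table the shares were 62.4%, 44.6%, 52.7% and 28.7%. At least 2 replicates had a peak in 4 of the 5 windows, against 49% of all windows, and the same 4 windows had one in at least 3 replicates, against 26.6%. All 4 replicates had a peak in the windows of UBE2L3 and ZBTB16, against 12.8% of all windows. SH3RF1, with 1 replicate, was the exception among the 5. Because the genes were picked with these results known, and because 5 windows are few, nothing is read from the difference between their shares and those of the table. Replicate 4 had the shortest list and found 2 of the windows, while replicate 3 found all of them although its list was shorter than that of replicate 1.

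**Figure D1:**
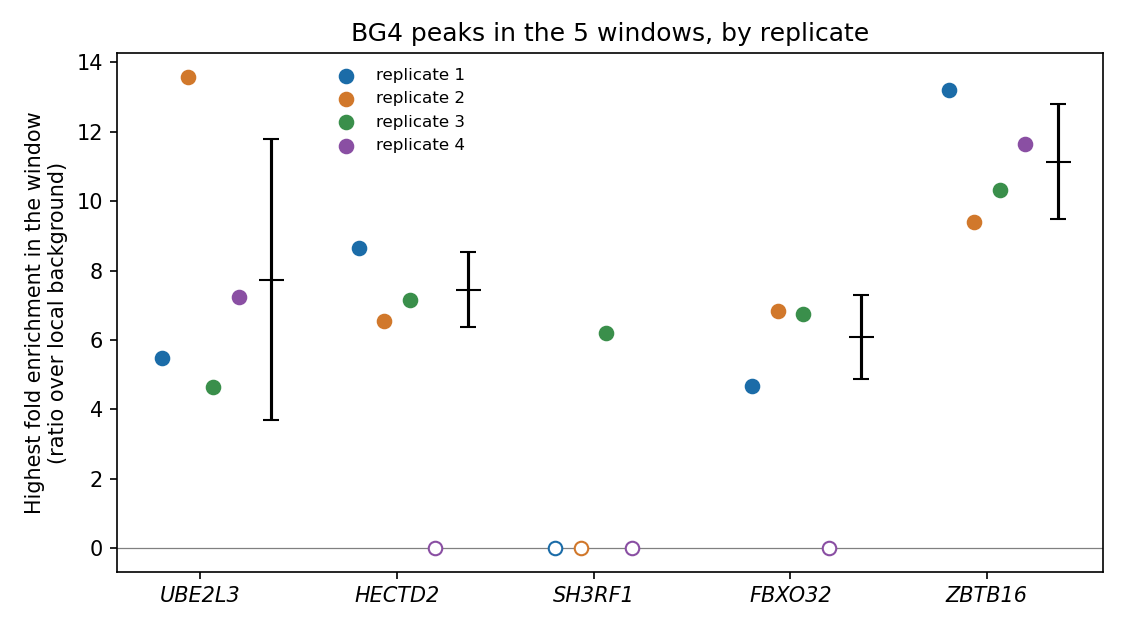
The highest fold enrichment (ratio over local background) of a peak in each window is plotted for each of the 4 replicates, with open circles at 0 where a list has no peak and black bars for the mean ± SD over the replicates with a peak where there are at least 2. ZBTB16 sits between 9.40 and 13.2 in all replicates, UBE2L3 spreads from 4.66 to 13.6, and SH3RF1 has 1 filled point.

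Fold enrichment here is the peak caller's ratio of reads at the summit to the local background. ZBTB16 had the highest mean of the 5, 11.1 ± 1.66 (SD, n = 4), followed by UBE2L3 with 7.74 ± 4.05. With a replicate without a peak counted as 0, HECTD2 came next with 5.59 ± 3.83, then FBXO32 with 4.57 ± 3.20 and SH3RF1 with 1.55 ± 3.11 (each SD, n = 4). Each gene differed from its neighbour in this order by less than the larger SD of the pair. ZBTB16 was the highest of the 5 in replicates 1, 3 and 4, and UBE2L3 in replicate 2. Among the 1303 windows ordered by mean, ZBTB16 held rank 29, UBE2L3 rank 103, HECTD2 rank 232, FBXO32 rank 306 and SH3RF1 rank 862. The median of the means was 5.59 over the 5 windows and 2.27 over all windows.

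The mean depends strongly on how many replicates have a peak. Its median was 1.41 over the 665 windows with 1 replicate, 3.10 over the 291 with 2, 5.22 over the 180 with 3 and 7.97 over the 167 with all 4. Within windows of the same support, ZBTB16 held rank 29 of 167 and UBE2L3 rank 97 of 167. HECTD2 held rank 62 of 180, FBXO32 rank 126 of 180 and SH3RF1 rank 224 of 665. UBE2L3 and FBXO32 thus lay below the median of the windows that share their support, and the other genes above it.

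**Figure D2:**
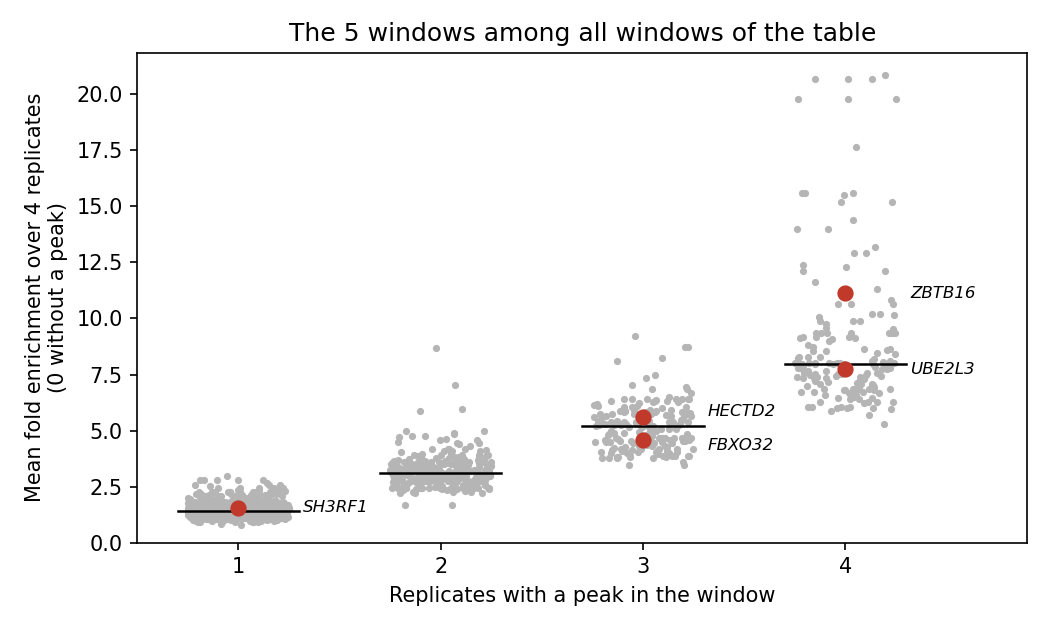
Each point is 1 window of the table, placed by the number of replicates with a peak (horizontal, spread sideways for visibility) and by its mean fold enrichment over 4 replicates (vertical, ratio, 0 for a replicate without a peak), with black lines at the medians and the 5 genes in red. ZBTB16 at 11.1 lies well above the median of 7.97 for windows with all 4 replicates, and UBE2L3 at 7.74 lies just below it.

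The peaks also differed in where they sat within the windows. Of the 18 peaks, 11 had their summit within 150 bp of the window centre, and the other 7 had it more than 800 bp away. Those 7 were all 5 peaks of UBE2L3 and a pair of downstream peaks in the ZBTB16 window. HECTD2, SH3RF1, FBXO32 and the stronger peaks of ZBTB16 were all central. For the other windows of the table, only the highest peak of each replicate was taken (2440 peaks). Their median distance was 268.5 bp, 37.4% of summits lay within 150 bp and 24.9% more than 800 bp away. Taken the same way, the 5 windows had 15 peaks, without the downstream ZBTB16 pair and the weaker UBE2L3 peak of replicate 4. The same 11 lay within 150 bp, and the other 4, all of UBE2L3, more than 800 bp away. Whether a window's centre is the start site of its gene was not established, since no annotation of the files' build was used here.

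**Figure D3:**
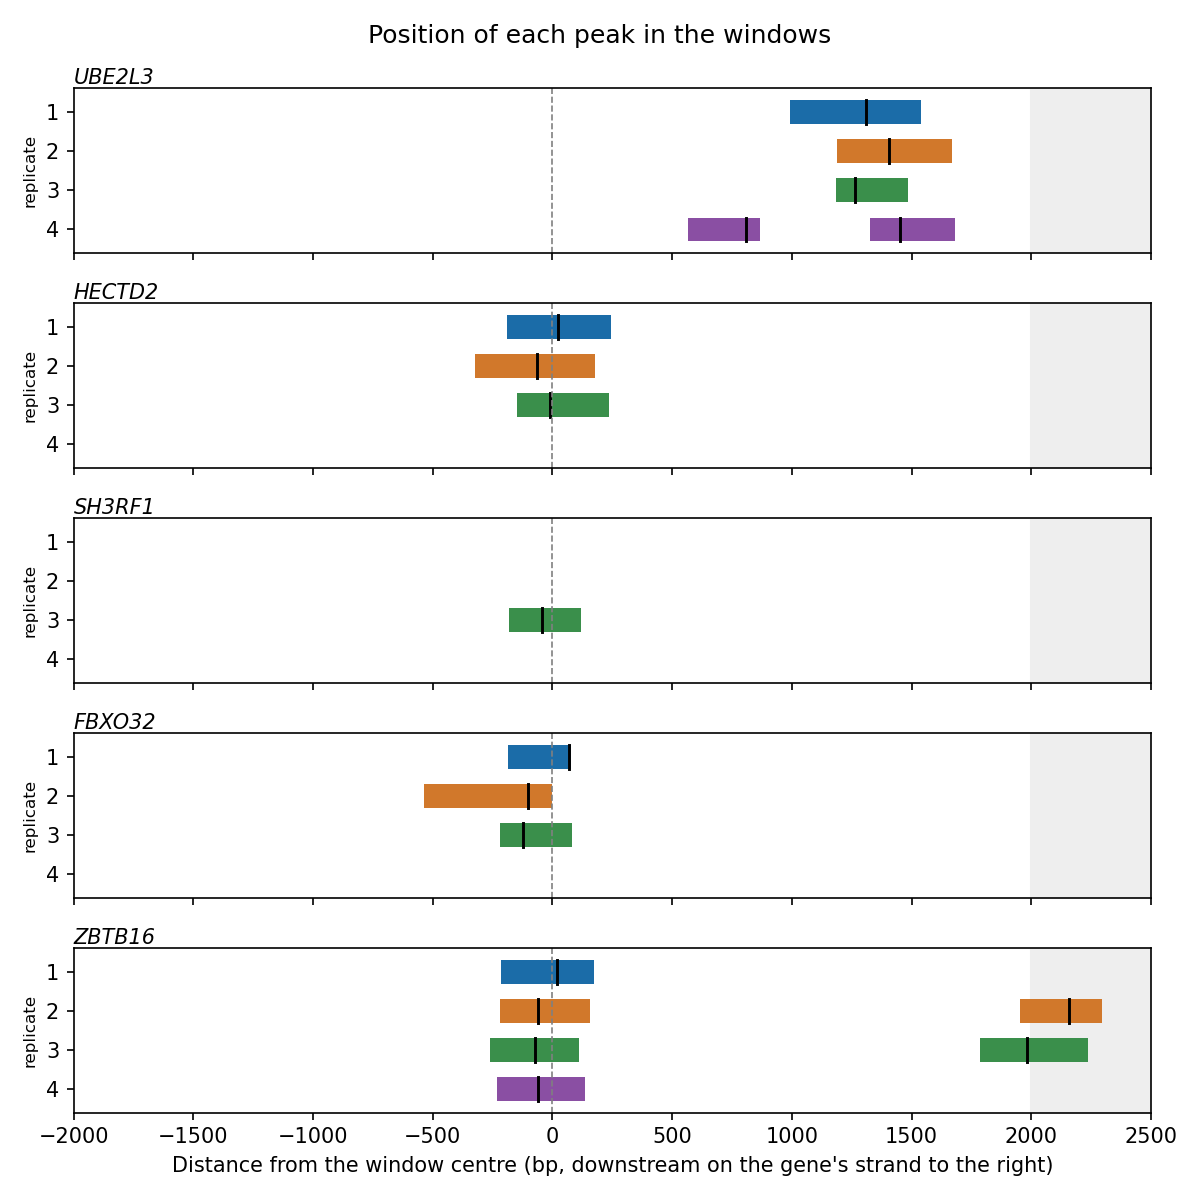
Each bar is 1 peak drawn by its distance in bp from the centre of the gene's window (dashed line), with 1 row per replicate, downstream to the right, summits as black ticks and the ground beyond the window in grey. Peaks of HECTD2, SH3RF1 and FBXO32 straddle or touch the centre, those of UBE2L3 lie 810 to 1450 bp downstream by their summits, and ZBTB16 has peaks in both places.

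UBE2L3, the E2 enzyme, has its window at chr22:21901736-21905736 on the plus strand (GRCh37). Replicate 2 had by far its strongest peak, at 21904925 to 21905405, where the fold enrichment was 13.6 and the −log10 q 20.9, at rank 616 of 6192 peaks in its list. Replicate 4 had a peak at 21905062 to 21905418 of 7.23-fold enrichment and −log10 q 7.34 (rank 1964 of 4427). The peaks of the other two replicates stood low in their lists. Replicate 1 had a peak at 21904728 to 21905274 of 5.47-fold enrichment and −log10 q 4.29 (rank 6600 of 8036). Replicate 3 had one at 21904920 to 21905222 with 4.66 and 2.85 (rank 6386 of 6805). These 4 peaks had widths of 547, 481, 303 and 357 bp for replicates 1 to 4 and shared 161 bp, and their summits lay 1311, 1405, 1265 and 1450 bp downstream of the window centre. Replicate 4 alone had another peak nearer to the centre, at 21904303 to 21904600, with its summit 810 bp downstream, 4.78-fold enrichment and −log10 q 3.12 (rank 3979). Its width of 298 bp was the lowest in the list of replicate 4, a width shared by 832 (18.8%) of the peaks there. No peak of any replicate covered the centre of the UBE2L3 window.

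All 5 peaks of UBE2L3 also lay in the window of RIMBP3C, at chr22:21903750-21907750 on the minus strand. RIMBP3C encodes a RIM-binding protein and is 1 of 3 closely similar genes on chromosome 22. The 2 windows shared 1986 bp and their centres were 2014 bp apart, the same distance as between the RefSeq starts of the genes in GRCh38 (21549447 and 21551461). Measured from the RIMBP3C centre, the summits of replicates 1 to 4 in the region of all 4 replicates lay 703, 609, 749 and 564 bp downstream along RIMBP3C. They were thus nearer to the centre of RIMBP3C than to that of UBE2L3, and only the extra peak of replicate 4 was nearer to UBE2L3 (810 against 1204 bp). The peaks cannot be assigned to 1 of the genes from these files. Of the 5 genes, UBE2L3 was the only one whose window overlapped another, which was the case for 44.1% of all windows.

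RIMBP3 and RIMBP3B have windows in the table too, and their peaks were looked up after those of UBE2L3 were seen. RIMBP3B, at chr22:21735663-21739663 on the plus strand, had a peak in all replicates, with fold enrichments of 9.09, 10.7, 7.49 and 6.43 for replicates 1 to 4. Its summits lay 485 to 615 bp downstream of its centre. RIMBP3, at chr22:20459786-20463786 on the minus strand, had a peak in replicates 1 to 3 with fold enrichments of 5.47, 7.61 and 5.39 and summits 383 to 560 bp downstream. In all 3 windows the peaks thus lay downstream of the centre along the RIMBP3 family gene. Among the highest peaks of each replicate in windows other than those of the 5 genes, 49.2% had their summit downstream. The GENCODE transcript of RIMBP3C shared 90.8% of its 50-base words with RIMBP3B and 88.4% with RIMBP3, and over the words in the part nearest its 5′ end (1124 and 1451 words shared), 74.9% with RIMBP3B and 96.7% with RIMBP3. Reads that match more than 1 copy can be placed at any of them, and how the alignment treated such reads is not given in the sources used here. What part the copies have in the UBE2L3 peaks was not tested.

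HECTD2, the HECT ligase, has its window at chr10:93168096-93172096 on the plus strand. Its peaks spanned 93169907 to 93170341, 93169773 to 93170272 and 93169947 to 93170330 in replicates 1, 2 and 3, with widths of 435, 500 and 384 bp, and the list of replicate 4 had none. The fold enrichment was 8.65, 6.55 and 7.15, a mean of 7.45 ± 1.08 (SD, n = 3) where a peak was called. The −log10 q was 10.2, 6.06 and 7.20. In position these were among the most alike of the peaks described. The summits were 25 bp downstream, 66 bp upstream and 12 bp upstream of the centre, a range of 91 bp, against a median range of 109 bp over windows with 3 replicates. The peaks shared 326 bp, and each covered the centre. In strength they stood mid-list, at ranks 2913 of 8036, 3872 of 6192 and 3718 of 6805.

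SH3RF1, the RING ligase, has its window at chr4:170190256-170194256 on the minus strand. Only replicate 3 had a peak in it, at 170192139 to 170192438, 300 bp wide. The summit lay 42 bp upstream of the centre, which the peak covered. The enrichment was 6.21-fold with −log10 q 5.48, rank 4750 of 6805 in the list. Replicates 1, 2 and 4 lacked a peak, which says that none was called there and not that the signal was 0. Single-replicate windows such as this one made up 665 of the 1303.

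FBXO32, the F-box protein, has its window at chr8:124551446-124555446 on the minus strand. Replicates 1, 2 and 3 had peaks at 124553371 to 124553630, 124553447 to 124553982 and 124553367 to 124553665, with widths of 260, 536 and 299 bp, and replicate 4 had none. The fold enrichment was 4.69, 6.85 and 6.74, a mean of 6.09 ± 1.21 (SD, n = 3) where a peak was called. The −log10 q was 3.17, 6.66 and 6.48, and the ranks were 7528 of 8036, 3438 of 6192 and 4000 of 6805. The peak of replicate 1 was therefore weaker than the other two. Its width of 260 bp was the lowest in its list, a width shared by 985 (12.3%) of the peaks there. The summits lay 68 bp downstream, 103 bp upstream and 125 bp upstream of the centre. Their range of 193 bp was wider than that of HECTD2 (91 bp) and than the median of 109 bp over windows with 3 replicates. The peaks shared 184 bp, and that of replicate 2 ended next to the centre without covering it.

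ZBTB16, the BTB zinc finger protein, has its window at chr11:113928315-113932315 on the plus strand. The central peaks spanned 113930102 to 113930486, 113930094 to 113930469, 113930053 to 113930423 and 113930082 to 113930448 in replicates 1 to 4, with widths of 385, 376, 371 and 367 bp. The fold enrichment was 13.2, 9.40, 10.3 and 11.6, and the −log10 q was 22.6, 12.2, 14.1 and 16.4. These were the strongest peaks of the 5 genes apart from that of UBE2L3 in replicate 2. They ranked 1043 of 8036, 1720 of 6192, 1598 of 6805 and 504 of 4427. The summits lay 17 bp downstream and 61, 75 and 61 bp upstream of the centre, within a range of 92 bp, against a median of 98 bp over windows with all 4 replicates. All 4 peaks covered the centre and shared 322 bp. No other window of the table overlapped this one.

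A weaker region lay at the downstream edge of the ZBTB16 window. Replicate 2 had a peak at 113932267 to 113932611 of 5.14-fold enrichment and −log10 q 3.67, of which 49 bases were inside the window, with its summit 2159 bp downstream of the centre. Replicate 3 had one at 113932101 to 113932552 with 5.04 and 3.52, and its summit was 1984 bp downstream. Replicates 1 and 4 had no peak there. Of the 18 peaks, 13 had a −log10 q of at least 4. The 5 below it were this pair, UBE2L3 in replicate 3, the extra UBE2L3 peak of replicate 4 and FBXO32 in replicate 1. The share of all peaks at this limit was not computed, so nothing is read from the count. The median −log10 q of peaks in windows was 6.34, 5.66, 6.32 and 5.36 for replicates 1 to 4, above the limit in each.

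Ranks within the lists set the values of different replicates on 1 scale. By fold enrichment, 7 of the 18 peaks were above the median of their own list. They were the 4 central peaks of ZBTB16, those of UBE2L3 in replicates 2 and 4 and that of HECTD2 in replicate 1. At the other end, 4 of the 18 had under 10% of their list below them. The same gene could stand at both ends, as UBE2L3 did in replicates 2 and 3. Peaks in windows of the table had lower median fold enrichments (6.45, 6.16, 6.47 and 6.07 for replicates 1 to 4) than whole lists (7.53, 7.32, 7.41 and 6.79). Ranked only among peaks in windows, the 18 had a median of 39.7% of peaks above them, in place of 57.1% in whole lists.

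**Figure D4:**
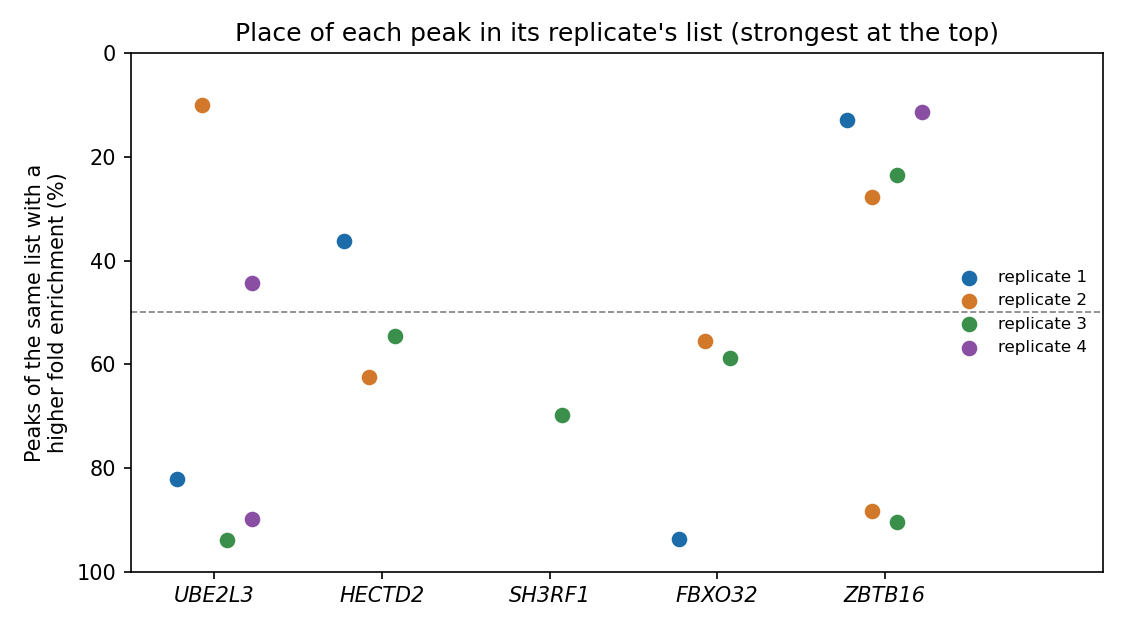
The 18 peaks are plotted by the percent of peaks in the same list that have a higher fold enrichment (vertical axis, strongest at the top, dashed line at 50%), by gene and coloured by replicate. The central ZBTB16 peaks of all 4 replicates stay in the upper part, and the UBE2L3 peaks run from near the top (replicate 2) to near the bottom (replicate 3).

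None of the 5 windows had another peak region within 50 kb of its centre, and this was so for 59.2% of all windows. UBE2L3 came closest to having one. The nearest peaks outside its window were 51.0, 55.3, 54.8 and 55.3 kb upstream in replicates 1 to 4, and 6 regions lay within 100 kb, 4 of them with at least 2 replicates. Over all windows the median within 100 kb was 1 region, and 0 with at least 2 replicates. No region lay within 100 kb for 40.2% of all windows. FBXO32 had strong neighbours much farther off, at 124 kb downstream, with fold enrichments of 23.6, 25.8, 25.01 and 18.6 in replicates 1 to 4. Those peaks included replicate 4, which had none in the FBXO32 window. HECTD2 likewise had its nearest peaks at 189 to 190 kb upstream in all replicates, with fold enrichments of 14.1, 13.6, 9.34 and 4.70. ZBTB16 had its nearest peaks at 100.3 to 184 kb and SH3RF1 at 349 to 755 kb, and neither had a region within 100 kb.

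For comparison, 28 other genes of the ubiquitin pathway with a window in the table were listed by role, from ubiquitin itself to deubiquitinating enzymes. Replicates 1 to 4 had a peak in 16, 9, 12 and 6 of their windows. At least 2 replicates had a peak in 9 of the 28 (32.1%) and all 4 in 1, and the median of their mean fold enrichments was 1.75. For the whole list of 33 with the 5 genes included, it was 13 (39.4%) and 3. The shares of the whole list were below those of all windows (49% and 12.8%), and those of the 5 genes above them. The 33 windows do not all hold separate peaks, since those of UBE3B, a HECT ligase, and KCTD10, a cullin 3 adaptor, overlap and hold the same peak of replicate 1.

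The 1 other gene with a peak in all replicates was USP13, a deubiquitinating enzyme, with fold enrichments of 7.19, 6.78, 9.64 and 5.58 for replicates 1 to 4 (7.29 ± 1.71, SD, n = 4). At least 2 replicates had a peak in 1 of the other 3 E2 enzymes, in 0 of the other 2 HECT ligases and in 3 of the other 5 RING ligases. The count was 1 of the other 3 parts of cullin 1 ligases, 1 of the other 4 BTB adaptors and 1 of 3 SOCS box adaptors. The ubiquitin gene UBB had a peak in 1 replicate, and UBA3, which belongs to the E1 enzyme of the ubiquitin-like protein NEDD8, in 3. The count was 1 of 6 for the proteasome, signalosome and deubiquitination. Over all windows the share with at least 2 replicates was 49%. Groups this small allow no contrast with that share or with each other. The list is a selection by hand and leaves out some genes of these families that have a window in the table, such as KLHL29, which encodes a BTB protein.

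**Figure D5:**
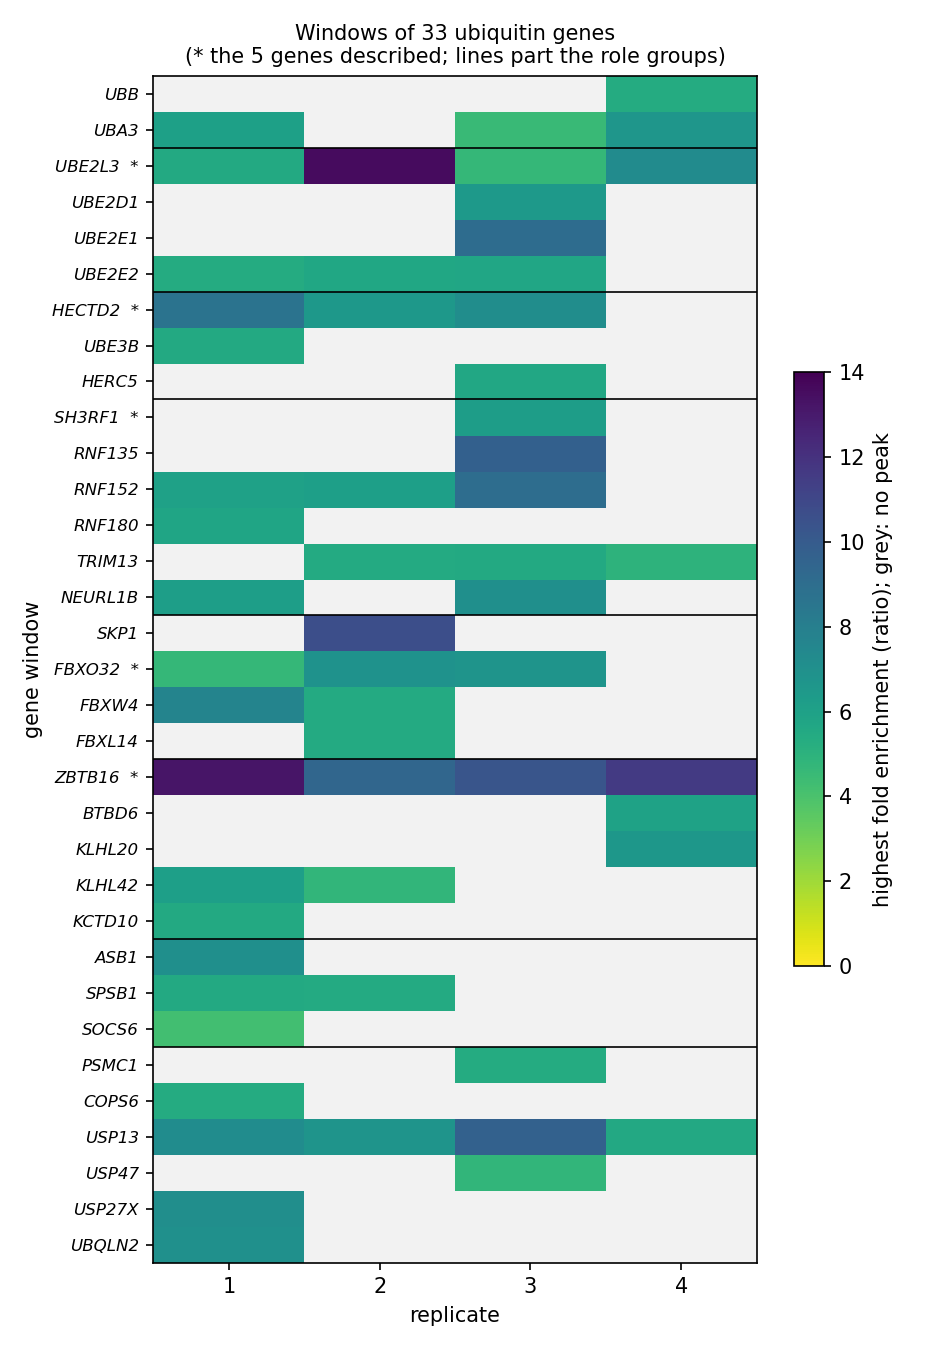
Rows are the windows of 33 ubiquitin genes ordered by role and columns the 4 replicates, with the colour giving the highest fold enrichment (ratio) and grey marking no peak. Filled rows across all 4 columns are seen for UBE2L3, ZBTB16 and USP13, while 20 of the 33 rows have 1 coloured cell.

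Likeness of pattern was measured as the Euclidean distance between the fold enrichments of 2 windows over the 4 replicates, with 0 for no peak. Windows that hold a peak of the gene itself were left out, which for UBE2L3 removed RIMBP3C with its 4 equal values, and of windows that overlap each other 1 was named. The nearest windows to HECTD2 were those of KLHL29 (8.29, 6.78, 6.65 and 0, distance 0.655) and RN7SL758P (distance 0.719). For FBXO32 they were CDKN2B-AS1 (distance 0.933, tied with the overlapping windows of CDKN2A and RP11-149I2.4) and TP53I11 (1.19), and for ZBTB16 PCLO (10.4, 7.61, 9.97 and 12.3, distance 3.37) and AC090505.4 (3.80). For UBE2L3 they were AC005498.3 (4.74, tied with the overlapping window of ZFP28) and RP11-475J5.4 (5.11). SH3RF1 shared its 4 values exactly with 3 other windows, RP11-845M18.7 and PYGO1 among them, and 46 peaks of the list of replicate 3 had the same fold enrichment of 6.21. Such ties show that fold enrichments at this strength come in steps.

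The RefSeq promoters (300 bases, from 250 before the start to 50 after it) were searched for 4 runs of at least 3 G with loops of 1 to 7 bases, on both strands. SH3RF1, UBE2L3 and both starts of HECTD2 had 0 such motifs, while 8778 of the 35116 promoters in the table had at least 1. With loops of up to 12 bases, the HECTD2 start shown above had 1 motif, against 37.8% of all promoters with at least 1. That start had 80% G and C over the 300 bases, more than 97.4% of promoters, SH3RF1 had 78% (more than 95.1%) and UBE2L3 71.3%, where the median of all promoters was 58.7%. The absence of a match says only that these letters are not in these windows.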

How the data were processed

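C4-2 cells were profiled by BG4 ChIP-seq, with 4 biological replicates. Per the labels, bcl2fastq 1.8.4, Bowtie2 2.2.5, SAMtools 1.11 and MACS2 2.1.1 were used with hg19 (GRCh37), whereas the methods name hg38. The positions were used as GRCh37. The use of the input as a control and the peak calling options are not given in the sources used here. The deposited fold enrichment is a ratio computed by the authors of summit reads to local background. The p and q of each peak are deposited as −log10 p-values and −log10 q-values. The lists hold no counts, so the depth is unknown and no interval was computed.

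The 5 genes and the list of 33 were chosen with earlier results of these data known. A peak was placed in a window of the study's table when they shared at least 1 bp, and peaks of the replicates that overlapped were merged. A replicate without a peak counted as 0 in means, which is not a measured 0. Starts are 1-based. Distances are signed along the strand the table gives. Nearby regions lie outside the window and within 50 kb of its centre. The named genes are the 5, the windows that overlap theirs, listed ubiquitin genes with a peak in all replicates, and the 2 windows nearest to each of the 5 in pattern. Others were named after their values were seen. No test was made, since there is 1 condition.

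Placement was tested on 2000 simulated windows, with 0 wrong counts. The simulated windows did not overlap and the peaks inside them lay near the centre. Peaks shared by overlapping windows and peaks at a window's edge were therefore not covered. Alternatives were other overlaps, window widths, q limits, ranks, distances, motif definitions and each replicate left out. Python 3.11.15, numpy 2.4.6, pandas 2.3.3 and matplotlib 3.10.9 were used.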

Additional observations from a re-analysis of the deposited data

Results flagged for a closer look

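The fold enrichment of the SH3RF1 window was 6.21 in replicate 3 and the other replicates had no peak, so 1 sample stood apart from the rest. Of 6 measures looked at in this way (the fold enrichment of each of the 5 windows and the number of the 5 windows found by each replicate), this was the only one past the limit. Windows with a peak of 1 replicate, 665 of the 1303 in the table, pass the limit by construction. The flag therefore adds nothing to the count of replicates.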

How the results depend on the processing

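Of the 49 recomputed values that sum up the 5 genes, the pathway list or the promoters, 38 stayed near the value reported and 11 moved. Near meant within a set ratio for counts and within the SD over replicates for other values. This rule is wide. Pathway windows with at least 2 replicates went from 13 to 9 without replicate 1 and still counted as near. So did the median of the 5 means, from 5.59 to 7.45 with only replicates with a peak. The tally is therefore no measure of robustness. The number of the 5 windows with a peak in every replicate was 1 in place of 2 with windows of 1 kb or 500 bp on each side of the centre (UBE2L3 kept 2 and 0 replicates), with a −log10 q of at least 4 (UBE2L3 lost replicate 3) and with the 3000 peaks of highest −log10 q per list, where all windows with such support went from 167 to 149, 126, 139 and 53. With the last, windows with at least 2 replicates numbered 2 in place of 4, since HECTD2 and FBXO32 had no peak left. SH3RF1, with 1 replicate to begin with, had none left either. Over all windows, those with at least 2 replicates fell from 638 to 183. Leaving out a replicate gave 2 to 4 windows with a peak in every remaining replicate, the highest without replicate 4, where the count over all windows was 272. The median percent of a list above the peaks was 57.1% in whole lists and 39.7% among peaks that lie in windows. Within 100 kb there were 6 nearby regions, all of UBE2L3, where the median over all windows was 1 per window. Support in all 4 replicates held for 3 pathway windows in place of 13. Of 4 promoters, both starts of HECTD2 included, 1 had a motif with loops of up to 12 bases, against 37.8% of all promoters. With runs of at least 2 G all 4 had one, against 81.5% of all promoters. Within 1 kb of the centre the UBE2L3 mean was 2.56 in place of 7.74. SH3RF1 rests on replicate 3. The cause of these shifts was not tested beyond what each setting removes. No paired analysis was possible because all replicates belong to 1 condition. Unknown depth limits what a missing peak says.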

Other observations

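Among the other ubiquitin genes, RNF152, a RING ligase, had peaks in replicates 1 to 3 with fold enrichments of 5.99, 6.09 and 8.98. TRIM13, another RING ligase, had them in replicates 2 to 4 with 5.46, 5.52 and 4.92. UBE2E2, an E2 enzyme, had 5.38, 5.66 and 5.72 in replicates 1 to 3. UBA3, part of the E1 enzyme for NEDD8, the ubiquitin-like protein that activates cullins, had 6.07, 4.49 and 6.62 in replicates 1, 3 and 4. The windows of UBE2E2 and TRIM13 overlap those of UBE2E2-AS1 and MIR3613. The naming of these genes followed a look at their values.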
